A study of Caenorhabditis elegans with 2 samples.

Results

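The promoter windows of the chemoreceptor genes were examined in chromatin immunoprecipitation and sequencing (ChIP-seq) of a GFP-tagged transcription factor in whole Caenorhabditis elegans larvae at L4, the last larval stage. The windows were chosen by gene name: every protein-coding gene whose RefSeq symbol carries a name of the sr or str receptor families, followed by a hyphen and a number, was taken, and its window ran from 1000 bp before the annotated start to 200 bp past it. This gave 1308 windows in 22 families, of 19973 protein-coding gene windows in all. The rule reads gene names and no measured value. The series holds 2 biological replicates of 1 group and no second condition. The worms came from strain OP355, which carries unc-119(tm4063) III and the transgene wgIs355, and males and females were pooled. The labels disagree on the tagged protein. The antibody and strain fields name mdl-1, which encodes the worm's Mad-like E-box factor, whereas a free-text field names ZK337.2. The sources used here do not name the promoter that drives the transgene. The lists held 29572 peaks in replicate 1, 28282 in replicate 2, 27577 for the replicates pooled and 4293 after reproducibility filtering. Sequencing depth is unknown, as peak lists give no reads.

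Chemoreceptor genes encode membrane-spanning G-protein-coupled receptors through which the worm senses odours, tastes, pheromones and repellents. Most are expressed in a few pairs of ciliated sensory neurons, and a single neuron carries many kinds of receptor. The families are large, arose by repeated gene duplication and lie in clusters, above all on chromosome V. They are grouped into the Str superfamily (among them srd, srh, sri, srj and str), the Sra superfamily (sra, srab, srb and sre), the Srg superfamily (srg, srt, sru, srv, srx and srxa) and families that stand alone, such as srbc, srsx, srw and srz. Basic helix-loop-helix factors bind E-boxes, short sites that begin with CA and end with TG. Dimers of the Myc, Max and Mad proteins favour the palindrome CACGTG, and many other dimers of the class bind the asymmetric form CACCTG. In chromatin from whole animals, a site occupied in a few neurons and a site occupied weakly in many cells cannot be told apart.

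Sequences at some of the 18 receptor windows with a peak after reproducibility filtering are shown first, as sites the values below belong to. They do not represent the 18 evenly. All 3 sites with CACGTG within 100 bp of the summit are shown, and none of the 7 without any of the motifs marked here. Each of the 4 longer ones is the 201 bp centred on the summit, read 5′ to 3′ on the strand of the receptor gene from the RefSeq genome (WBcel235, the assembly of the ce11 lists). Capitals mark matches, on either strand, to the motif CACGTG, the motif CACCTG, the repeat GAGAGA or the repeat GCGCGC. The srv-1 site lies in an annotated exon of that gene, and only 30 bp around its E-box are shown, with the E-box in capitals.
srh-17 (chrV:14660645-14660845, plus strand): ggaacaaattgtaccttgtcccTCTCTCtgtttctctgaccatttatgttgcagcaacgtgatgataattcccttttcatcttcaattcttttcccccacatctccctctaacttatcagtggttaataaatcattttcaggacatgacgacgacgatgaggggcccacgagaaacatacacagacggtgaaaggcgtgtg
srh-2 (chrV:728027-728227, plus strand): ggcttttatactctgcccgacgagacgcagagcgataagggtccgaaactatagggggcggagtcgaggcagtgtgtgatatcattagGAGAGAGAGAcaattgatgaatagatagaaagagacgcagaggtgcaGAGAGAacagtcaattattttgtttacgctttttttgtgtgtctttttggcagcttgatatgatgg
str-176 (chrIV:8464295-8464495, minus strand): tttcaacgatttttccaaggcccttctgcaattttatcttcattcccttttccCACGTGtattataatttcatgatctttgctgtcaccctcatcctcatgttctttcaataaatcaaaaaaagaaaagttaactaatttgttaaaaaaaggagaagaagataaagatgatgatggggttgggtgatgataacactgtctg
srh-83 (chrV:7163695-7163895, plus strand): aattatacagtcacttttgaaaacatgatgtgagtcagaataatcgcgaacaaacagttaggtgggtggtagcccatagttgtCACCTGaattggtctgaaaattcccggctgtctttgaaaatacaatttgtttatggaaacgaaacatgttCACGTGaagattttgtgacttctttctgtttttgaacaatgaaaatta
srv-1 (chrIII:6850413-6850442, plus strand): ctcatcatctctCACGTGgacacacgtttt
The srh-17 and srh-2 sequences held GAGAGA, which can overlap itself, as in the longer capital run of srh-2, and no E-box of either form. The str-176 and srv-1 sequences held the palindrome CACGTG, and the srh-83 sequence held both forms. The srv-1 sequence also held GAGAGA on the other strand, which runs into the E-box and is not marked.

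A second set shows the 120 bp just upstream of 4 receptor starts, on the gene's strand, because the asymmetric E-box recurs there in these families. All 4 examples hold this E-box, and none of their windows had a peak summit on the reproducibility-filtered list. Capitals mark CACCTG or its reverse complement CAGGTG.
srh-234 (chrV:7651858-7651977, minus strand): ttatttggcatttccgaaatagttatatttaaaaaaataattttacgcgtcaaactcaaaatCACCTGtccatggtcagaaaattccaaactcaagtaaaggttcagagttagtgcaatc
sri-6 (chrV:13185564-13185683, plus strand): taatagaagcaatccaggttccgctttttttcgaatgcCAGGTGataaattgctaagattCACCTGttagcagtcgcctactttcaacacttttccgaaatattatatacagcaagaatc
srz-1 (chrV:16675733-16675852, plus strand): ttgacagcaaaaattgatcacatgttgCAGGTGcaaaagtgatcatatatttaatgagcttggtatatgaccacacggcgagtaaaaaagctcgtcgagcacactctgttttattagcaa
sre-13 (chrII:14636838-14636957, minus strand): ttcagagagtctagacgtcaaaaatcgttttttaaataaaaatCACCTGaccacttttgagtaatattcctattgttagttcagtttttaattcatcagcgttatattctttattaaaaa
Of these 4, srh-234 is a receptor gene of the ADL sensory neurons whose expression depends on feeding state. The counts of this element are given with the motifs further on.

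Peaks were rare in the receptor windows. Of the 1308 windows, 18 held the summit of a peak on the authors' list after irreproducible discovery rate (IDR) filtering (1.38%, exact Clopper-Pearson 95% interval 0.818 to 2.17%), where 10.9% of all coding windows did (2185 of 19973). A window with such a summit is called bound below. The interval covers counting error only and treats genes as independent. The list called on both replicates together, which also holds weak peaks, had a summit in 125 receptor windows (9.56%), where it had one in 38.9% of all coding windows. In the replicates' own lists, replicate 1 had a summit in 170 receptor windows (13%) against a background of 40.6% of all coding windows, and replicate 2 in 158 (12.1%) against 39.7%. A summit in both replicates' lists was found in 57 receptor windows (4.36%), beside 28.7% of all coding windows. No list had a summit in 1026 of the receptor windows (78.4%). With 1 group there is no comparison between conditions, and the receptor counts are set beside the background as a description with no test.

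The weaker the peaks admitted, the more receptor windows had one, but the receptor share stayed under the share of all coding windows at each signal level examined. The signal is the caller's own value, read within 1 list. At a pooled-list signal of at least 20 the shares were 2.52% of receptor windows and 23.7% of all coding windows. At a signal of at least 100 they were 0.382% and 3.60%, which is 5 receptor windows and 719 coding windows. No receptor window reached 200, a level that 191 coding windows passed. Among windows with a pooled-list summit, the strongest summit had a median signal of 14.5 in the 125 receptor windows and 25.0 in all 7776 coding windows, and 18 of the 125 (14.4%) and 28.1% of the 7776 were bound.

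**Figure D1:**
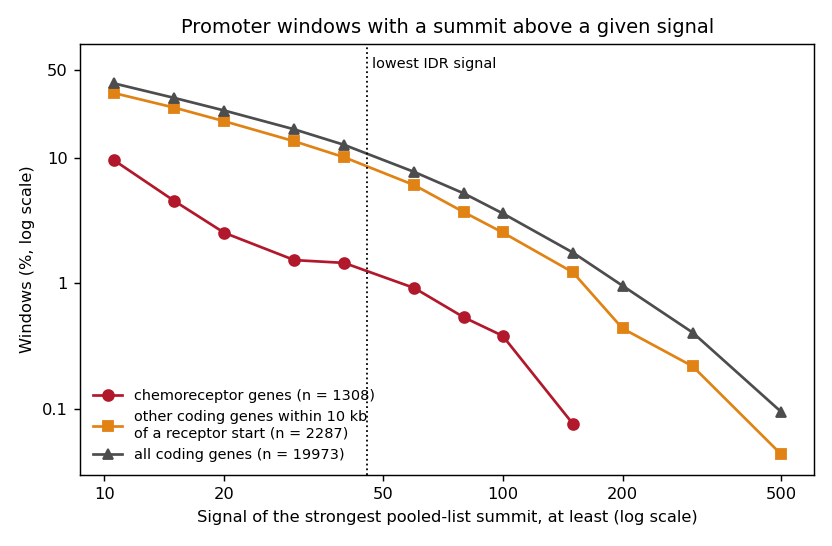
Share of promoter windows (%, log scale) whose strongest summit on the pooled list had at least the signal on the x axis (log scale), for chemoreceptor genes, for other coding genes whose start lay within 10 kb of a receptor start, and for all coding genes. The dotted line marks the lowest signal on the IDR list. The receptor curve starts at 9.56% and ends at a single window at a signal of 150, and lies under both other curves throughout.

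Of the strongest pooled peaks per window, 44% in receptor windows and 68.8% in coding windows at large overlapped a peak in both replicates' lists. Of the 125 pooled peaks in receptor windows, 55 overlapped a peak in both replicates' lists, 38 in replicate 1's list alone, 25 in replicate 2's alone and 7 in neither. An overlap here is at least 1 bp, and the difference in shares was not tested. The peaks were not matched for signal: 64.8% of those in receptor windows lay below the pooled list's median signal, beside 31.8% in all coding windows. The lists come from the same libraries and are not separate evidence.

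The 18 bound windows held 18 different peaks, each with a peak in both replicates' lists. The IDR list was filtered for reproducibility between these same replicates, so agreement between the replicates is in part built in. On the IDR list the signal of the 18 peaks had a median of 72.6 and ran from 46.2 to 169. The strongest summit in all 2185 bound coding windows had a median of 76.9, and the highest was 1353. Both medians cover only peaks at or above the list's lowest signal, 45.6, so their nearness is in part set by that cut. In replicate 1 the 18 peaks had a median signal of 36.6 (range 17.99 to 83.3), and in replicate 2 a median of 38.6 (range 16.3 to 85.2). On the log2 scale, replicate 1 minus replicate 2 was -0.08 at the median (SD 0.51 over the 18 peaks), with 6 peaks higher in replicate 1 and 12 in replicate 2. Each replicate's strongest 4293 peaks, as many as the IDR list holds, bound 13 receptor windows in replicate 1 (0.994%, beside 10.6% of all coding windows) and 18 in replicate 2 (1.38%, beside 10.7%). Of the 18 bound windows, 12 were among replicate 1's and 17 among replicate 2's, and 11 were in both.

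Of the 18 bound windows, 9 held a peak that lay in no other coding gene's window. The strongest receptor peak of all lay upstream of srh-17 (WBGene00005242, V:14661305-14663154, plus strand), a Str superfamily gene. Its peak at V:14660676-14660840 had an IDR-list signal of 169 and rank 538 of 4293, with 83.3 and 85.2 in replicates 1 and 2. The summit lay 560 bp upstream of the start, in intergenic sequence, and the next coding gene upstream was 3129 bp away. Its replicate values were nearly equal and were the highest of the 18 in both lists.

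Next among these 9 came srh-76 (V:5833831-5835183, plus strand), with a signal of 117 (50.9 and 61.2 in replicates 1 and 2), and its summit 857 bp upstream. The srz-62 peak (gene at IV:3900504-3902326, plus strand) had a signal of 104 (48.8 and 55.7 in replicates 1 and 2), at 492 bp upstream. The str-176 peak (gene at IV:8460999-8463816, minus strand) had a signal of 91.5 (55.4 and 36.6 in replicates 1 and 2), at 579 bp upstream. Each of these summits lay in intergenic sequence and nearer to the receptor than to any other annotated start.

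The srv-1 peak differed in position. Its summit lay 31 bp downstream of the start of srv-1 (WBGene00005712, III:6850385-6853203, plus strand), inside an annotated exon, and was the one summit of the 18 not upstream. It had a signal of 77.9 (31.0 and 44.6 in replicates 1 and 2), and an E-box CACGTG centred 11 bp from the summit. The srw-145 peak had a signal of 70.1 (38.8 and 34.0 in replicates 1 and 2), at 843 bp upstream. The srr-6 peak had 67.6 (28.7 and 41.5 in replicates 1 and 2), at 456 bp upstream, with the start of a piRNA gene 370 bp from the summit. The remaining peaks without a coding partner were near the low end of the IDR list. That of sri-38 had a signal of 46.9 (20.6 and 26.3 in replicates 1 and 2). That of srd-44 had 46.2 (21.8 and 23.5 in replicates 1 and 2), and its summit lay 8 bp from the start of a tRNA gene, F17A2.t1, and 362 bp from srd-44. Counting genes of every type, 7 of these 9 receptors had the start nearest to their summit.

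The other 9 bound windows shared their peak with the window of a gene that is not a receptor, and 6 of the 9 summits lay nearer to that gene. For comparison, 809 of all 2185 bound coding windows (37.03%) held a peak that another coding window also held. The strongest shared peak lay between srh-89 (V:7463453-7464796, minus strand) and F25E5.1 (V:7465884-7471288, plus strand), with a signal of 133 (71.0 and 62.5 in replicates 1 and 2). Its summit was 901 bp from the srh-89 start and 187 bp from the F25E5.1 start. The peak between srh-2 (V:728301-734311, plus strand) and icl-1 (V:724332-728004, minus strand), the gene of the bifunctional glyoxylate cycle enzyme, had a signal of 114.9 (64.9 and 48.8 in replicates 1 and 2). The summit lay 174 bp from srh-2 and 123 bp from icl-1. The genes are divergent, with 296 bp between them, and a non-coding RNA gene, C05E4.16, starts nearer still, 104 bp from the summit. The peak in the srh-282 window had a signal of 88.7 (49.0 and 50.8 in replicates 1 and 2), and lay 956 bp from srh-282 but 65 bp from sma-10, which encodes a membrane protein of the body-size BMP pathway. In replicate 1's own list the summit of that peak fell outside the srh-282 window.

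Of the remaining shared peaks, those of 3 more receptors lay nearer to the partner. The srr-10 peak had a signal of 64.8 (25.5 and 38.1 in replicates 1 and 2), and lay 501 bp from srr-10 and 207 bp from clic-1, the clathrin light chain gene. The srx-21 peak had 59.0 (17.99 and 39.2 in replicates 1 and 2), at 231 bp from srx-21 and 50 bp from the F-box gene fbxa-72. The srh-83 peak had 48.0 (18.7 and 29.3 in replicates 1 and 2), at 715 bp from srh-83 and 200 bp from ugt-41, a UDP-glucuronosyltransferase gene. In the last 3 windows the receptor was nearer than the coding partner. The srh-70 peak had 75.1 (42.2 and 36.2 in replicates 1 and 2), at 129 bp from srh-70 and 993 bp from the homeobox gene ceh-99, with a snoRNA gene, T21B4.20, starting 98 bp from the summit. The sri-5 peak had 53.7 (34.5 and 16.3 in replicates 1 and 2), at 301 bp from sri-5 and 431 bp from the splicing factor gene rsr-1. The srh-16 peak had 48.8 (24.3 and 24.9 in replicates 1 and 2), at 53 bp from srh-16. No bound peak lay in the windows of 2 receptors. The sri-5 and srx-21 peaks had the most unequal replicate values, in opposite directions.

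**Figure D2:**
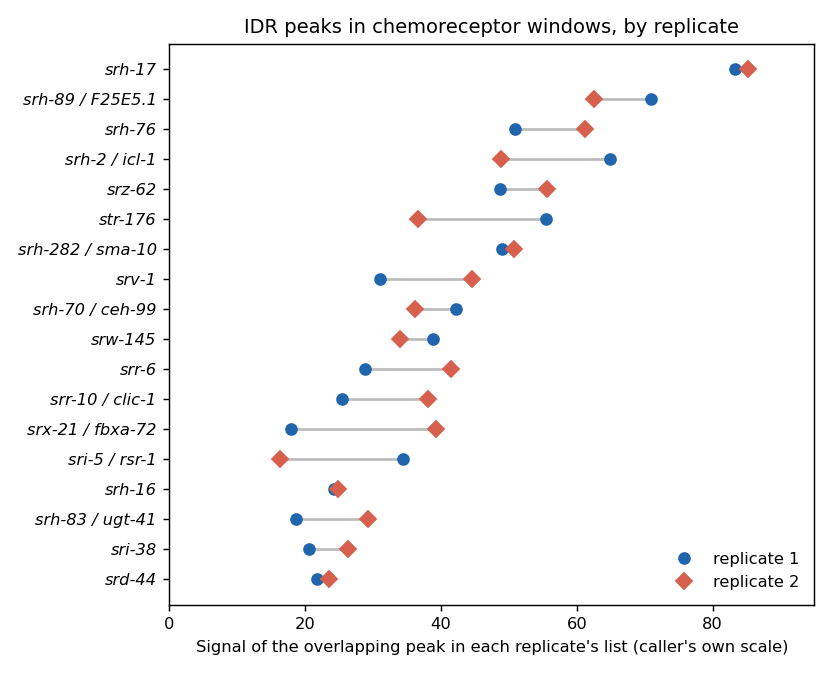
Deposited signal (x axis, the caller's own scale) of the peak overlapping each of the 18 bound chemoreceptor windows' IDR peaks in replicate 1 (circles) and replicate 2 (diamonds), ordered from the highest IDR-list signal at the top (srh-17) to the lowest (srd-44), with the coding partner, where given, after the slash. The gaps between replicates are widest relative to the level at srx-21 and sri-5, and srh-17 is highest in both.

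The summits in receptor windows lay farther from the start than in bound windows at large. The distance between summit and start had a median of 496.5 bp in the 18 receptor windows and 252 bp in all 2185 bound coding windows. The summit lay upstream in 17 and in intergenic sequence in the same number. The receptor had the nearest coding start in 12 of the 18, and the nearest start of any annotated gene in 9.

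Receptor windows with a weaker peak were led by genes near the edge of the IDR list, whose lowest signal was 45.6. Among pooled peaks that were not on the IDR list but overlapped a peak in both replicates' lists, sre-23 had the highest signal, 40.8, with 19.2 in replicate 1 and 26.4 in replicate 2. The sri-39 peak followed with 36.5 (28.4 and 18.6 in replicates 1 and 2). The bound sri-38 belongs to the same family and lies on the same chromosome, II. The srr-2 peak had 29.2 (8.09 and 19.7 in replicates 1 and 2). The other 7 of the strongest 10 had signals between 21.6 and 28.3 and were sre-48, srm-3, srz-97, srd-26, srr-4, srw-86 and srh-166. Just inside the IDR list stood srd-44 at 46.2 and sri-38 at 46.9.

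By family, the small srr family had the highest shares. Of its 9 windows, 2 were bound (22.2%), those of srr-6 and srr-10, and 6 had a pooled summit (66.7%). It was the one family of 22 with shares above those of all coding windows, 10.9% and 38.9%, and its count is too small to fix the share. The srh family held the most bound windows, 8 of 220 (3.64%), and sri had 2 of 61 (3.28%). The families srd, srv, srw, srx, srz and str had 1 each, which for str was 1 of 193 windows (0.518%). The other 13 families, with 455 windows together, had none. A pooled summit was found in at least 1 window of 20 families, all but srb and srn. By superfamily, 12 of 587 Str windows (2.04%), 2 of 309 Srg windows (0.647%), 4 of 288 windows in families outside the superfamilies and 0 of 124 Sra windows were bound, where pooled shares ran from 8.74% in Srg to 10.4% in the stand-alone families.

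**Figure D3:**
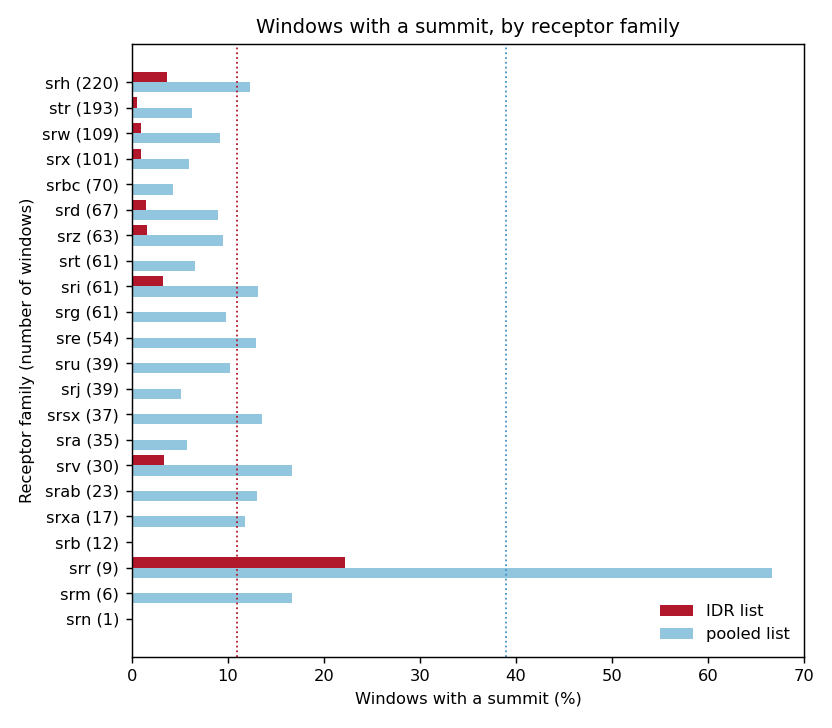
Share of windows (%) with a summit in the IDR list and in the pooled list, by chemoreceptor family. Dotted lines mark the shares of all coding windows, 10.9% and 38.9%, and only srr passes them.

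The receptor share was also the lower one beside genes of the same chromosome regions. Receptors sit largely on chromosome V, with 888 of the 1308 there (67.9%), where 22% of other coding genes lie. On V, 10 of 888 receptor windows (1.13%) and 9.94% of other coding windows were bound. With each chromosome cut into 3 equal segments, the receptor share was below that of other coding genes in all 18 segments. Of these, 7 hold fewer than 20 receptor windows, from 1 to 16, and 6 of the 7 had none bound, so their shares rest on few windows. The other 11 hold 24 to 351. On V these were 1.14% and 10.9% in the left segment, 2.40% and 12.6% in the middle one and 0.304% and 5.79% in the right one. At the share of other genes in the same segments, 128 receptor windows (9.78%) would have been bound and 484 (37.02%) would have had a pooled summit. Other coding genes whose start lay within 10 kb of a receptor start were bound in 208 of 2287 windows (9.09%), and 32.6% of them had a pooled summit.

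**Figure D4:**
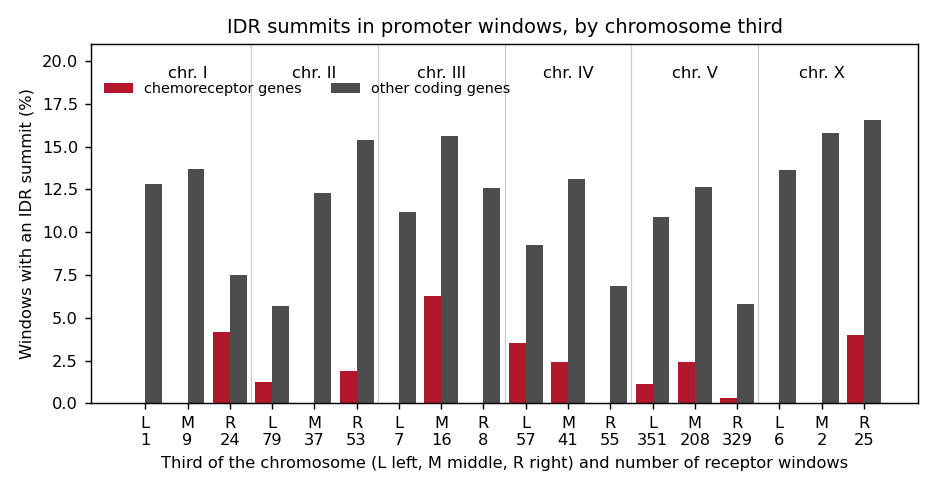
Share of windows (%) with an IDR summit in each of 3 equal segments of the 6 chromosomes, for chemoreceptor genes and other coding genes. The receptor share is the lower one in all 18 segments, of which 7 hold fewer than 20 receptor windows (numbers under the axis).

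Over all families together, the shares were highest for receptors with no receptor of any family beside them, and the counts were not split by family. With no receptor as an adjacent coding gene, 10 of 398 windows were bound (2.51%) and 16.1% had a pooled summit. With a receptor on one side the values were 7 of 532 (1.32%) and 7.33%, and with receptors on both sides 1 of 378 (0.265%) and 5.82%. The difference between these classes was not tested. The longest unbroken run held 25 receptors at V:2933143-3011494, between srh-247 and srw-135, and none of its windows was bound while 2 had a pooled summit. Of all receptor windows 1.38% were bound and 9.56% had a pooled summit, beside 10.9% and 38.9% of all coding windows. With 25 windows, the run is not read as differing from the other receptors. Peaks were more frequent where the upstream gene within 1000 bp was classed as a divergent gene of another kind. In that class 6 receptor windows were bound (5.22%) and 17.3% of other coding windows. The 6 were sri-5, srx-21, srh-2, srh-83, srr-10 and srh-16. Each of these peaks also lay in the window of a gene that is not a receptor. At srx-21, srh-2, srh-83 and srr-10 the summit was nearer to that gene. The class takes in genes at a distance of 0, such as srz-4, so it is not limited to divergent promoters, whose own share was not computed. It also holds neighbouring same-strand receptors such as srg-8 and srg-9, which are therefore missing from the same-strand class. With a same-strand gene within 1000 bp the shares were 0.671% and 7.44%, and with no coding gene within that distance 1.27% and 11.8%. The last class takes in srh-70, srh-282 and srh-89, whose peaks were also shared with another gene's window. Their next coding genes upstream were 1121, 1020 and 1087 bp away.

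Repeated sequence was measured for each window. A window was called unique where at least 95% of its 31-base stretches occur once in the genome, which was so for 992 receptor windows (75.8%) and 79.9% of other coding windows. Among unique windows, 17 of 992 receptor windows (1.71%) were bound, where 12.3% of all unique coding windows were, and 109 had a pooled summit (10.99%), where 42.9% did. Among windows that were not unique the shares were 1 of 316 receptor windows (0.316%) and 5.64% of all coding windows. The windows had a median GC content of 33.2% for receptors and 35.1% for other coding genes. The part of repeated sequence and of GC content in the counts was not tested.

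The palindromic E-box CACGTG was about as frequent in receptor windows as elsewhere. It was present in 220 of the 1308 (16.8%), and in 18.4% of all coding windows of the same length. Of the receptor windows that held it, 7 were bound (3.18%), where 16.6% of all coding windows with it were. Without it, 11 of 1088 receptor windows (1.01%) and 9.66% of all coding windows without it were bound. The srv family held it most often, in 36.7% of 30 windows. Within 100 bp of the summit it occurred in 3 of the 18 bound receptor windows, srv-1 at 11 bp, str-176 at 44 bp and srh-83 at 55 bp, which is 16.7% beside 16.4% of the 1844 IDR peaks with a summit in a coding window. In srh-17, sri-5, srw-145 and srh-2 the window's CACGTG lay 158, 336, 375 and 380 bp from the summit.

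The asymmetric form CACCTG, counted on either strand, was more frequent in receptor windows than elsewhere. It was present in 487 receptor windows (37.2%) and 27.2% of all coding windows. It was most frequent in srz (87.3% of 63 windows), sri (77.0% of 61), sre (64.8% of 54) and srh (55.5% of 220), and least in srbc (7 of 70) and sra (4 of 35), leaving aside srn with 1 window. In the 100 bp just upstream of the start, the place shown in the second set of sequences, it occurred in 190 receptor windows (14.5%) and 512 other coding windows (2.74%). There srz held it in 74.6% of windows, sri in 44.3%, sre in 33.3% and srh in 27.7%. Receptor windows were bound at much the same share with and without it. Of the 487 with CACCTG anywhere, 7 were bound (1.44%), and of the 821 without it, 11 (1.34%), where 10.7% of all coding windows with it were. Of the 190 with it in the last 100 bp, 1 was bound (0.526%) and 17 had a pooled summit (8.95%), where 8.20% and 35.4% of the 512 other windows did. Genes of one family share sequence by descent, so these windows are not independent.

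**Figure D5:**
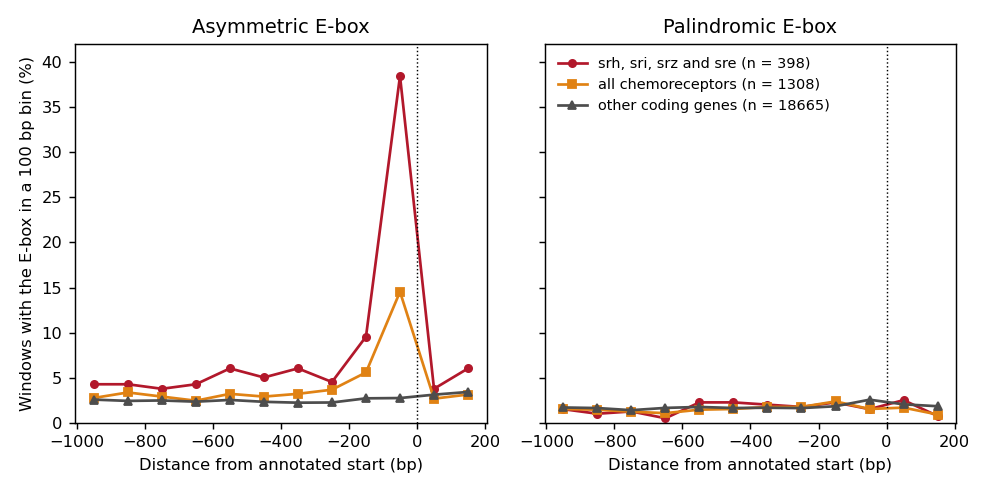
Share of windows (%) holding each E-box form by distance from the gene start in 100-bp bins, for chemoreceptor families and other coding genes. In the bin just upstream of the start the asymmetric form reaches 38.4% in the srh, sri, srz and sre families together, 14.5% in all receptors and 2.74% in other coding genes, and the palindrome 1.51%, 1.53% and 2.56%, which for other coding genes is its highest bin.

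GAGAGA and GCGCGC were found in a smaller share of receptor windows than of all coding windows. GAGAGA, on either strand, was present in 407 (31.1%) and in 50.9% of all coding windows, and GCGCGC in 66 (5.05%) and 9.09%. Of the windows with GAGAGA, 9 receptor windows (2.21%) and 14.3% of all coding windows were bound, and of those with GCGCGC, 2 (3.03%) and 20.1%. Around the 18 summits, GAGAGA occurred within 100 bp in 6 (33.3%, beside 40.3% of the 1844 IDR peaks with a summit in a coding window), GCGCGC in 2 (11.1%, beside 9.54%) and CACCTG in 2 (11.1%, beside 4.34%). With 18 peaks these shares rest on few counts, and 7 summits had none of the 4 motifs there. A match is only a description of the letters in the window.

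Receptors with known sensory roles are given for their own values, whatever these were. The 19 genes followed here were str-1 of the AWB neurons, str-2 of AWC, str-3 of ASI, sra-6 of ASH, sra-9 of ASK, sra-13, srb-6, srh-142 of ADF, srh-220 and srh-234 of ADL, the diacetyl-avoidance receptor gene sri-14, sre-1, srd-23, the pheromone receptor genes srg-36, srg-37, srbc-64, srbc-66 and srx-43, and srx-44. None was bound, and none had a summit in the pooled list or in replicate 1's list, where 1.38% of all receptor windows and 10.9% of all coding windows were bound and 9.56% and 38.9% had a pooled summit. With 19 genes, a count of 0 is not read as a difference from the other receptors. In replicate 2's list alone sra-13 had a summit with a signal of 12.4 and sre-1 one of 17.97. CACGTG was present in 3 of the 19 windows and CACCTG in 9, where 16.8% and 37.2% of all receptor windows and 18.4% and 27.2% of all coding windows held them. In the sri-14 window 0% of the 31-base stretches occur once in the genome, so the lack of a peak there cannot be read.

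In a list of 45 other chemosensory genes, namely G proteins, channels, regulators and the diacetyl receptor gene odr-10, which the name rule does not take in, 2 windows were bound (4.44%, exact Clopper-Pearson 95% interval 0.543 to 15.1%), where 10.9% of all coding windows were. A pooled summit was present in 13 of the 45 (28.9%), where 38.9% of all coding windows had one, and the interval of the bound share includes that of all coding windows. The window of kin-29, which encodes a salt-inducible-type kinase known to regulate chemoreceptor expression, held a peak with a signal of 224 (107 and 121 in replicates 1 and 2), with its summit 265 bp upstream. That is higher than any receptor window. The window of tax-6, the calcineurin catalytic subunit gene, held one of 87.8 (65.0 and 29.5 in replicates 1 and 2), at 942 bp upstream. The replicate values were close for kin-29 and unequal for tax-6.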

How the data were processed

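Whole L4 larvae were assayed by ChIP-seq in 2 biological replicates. The 4 deposited ce11 peak lists were used: one per replicate, one on pooled replicates, and the IDR list, each giving the authors' signal value per peak. Per the file headers, the IDR list derives from the pooled and replicate lists. All 4293 of its lines occur unchanged in the pooled list. The sources used here name no peak caller, aligner or IDR threshold. The 4 ce10 lists were not used. Depth is unknown, so no interval on a signal is given. Nothing says whether the replicates share a culture.

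Summits were assigned to windows around Ensembl release 115 gene starts, named with RefSeq symbols through WormBase IDs, with Python 3.11.15, pandas 2.3.3 and SciPy 1.17.1. The assignment was tested on simulated peaks. Named genes were all bound receptors, their coding partners (1 is not reported here), the 10 strongest other pooled peaks seen in both replicates, 19 receptors with textbook roles, and bound genes of the signalling list. The member families, lists and genes were chosen with earlier results of these data known, although the rule for members uses names alone. No list was tested. Alternatives changed the window, the assignment, the peak cut-off, the replicate and, after seeing the data, window uniqueness and the symbol source.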

Additional observations from a re-analysis of the deposited data

How the results depend on the processing

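The receptor share of bound windows stayed below the coding share under each setting for which both were counted. With 500 bp upstream in place of 1000 bp, 9 receptor windows were bound (0.688%, beside 8.54% of coding windows), 60 had a pooled summit (4.59%, beside 30.2%), 143 held CACGTG (10.9%, beside 12.04%) and the median signal of bound windows was 67.6. With 2000 bp, 36 were bound (2.75%, beside 14.7%), 211 had a pooled summit (16.1%, beside 49.4%), 368 held CACGTG (28.1%, beside 30.4%) and the median signal was 66.2. With peaks at or above the list's median signal, 9 receptor windows (0.688%) and 1123 coding windows (5.62%) were bound, and 44 receptor windows had a pooled summit (3.36%, beside 26.6%). Counting a 1 bp overlap gave 21 bound receptor windows (1.61%, beside 12.01%), the nearest start alone 12 (0.917%, beside 8.81%), and unique windows, chosen after seeing the data, 17 (1.71%, beside 12.3%). Using one replicate's strongest peaks gave 13 to 18 bound receptor windows and 2127 to 2131 coding windows. One replicate's whole list, which also holds weak peaks, had a summit in 158 to 170 receptor windows (12.1 to 13%). The same lists had one in 7923 to 8109 coding windows (39.7 to 40.6%). Without replicate 1, sri-5 was lost and sre-23 gained. Without replicate 2, 12 of the 18 remained and sri-39 was gained. No paired analysis was possible because the series has a single group. Depth is unknown, so a window without a summit shows only that none was called.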

Other observations

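Pseudogenes of the receptor families had no IDR summit in 320 windows, which allows a share of up to 0.938% (3 counts of the total, counting error only), and 18 of them had a pooled summit (5.63%). Some other large gene families of the worm also had shares below the 10.9% of all coding windows. These families were chosen after their values were seen. F-box genes (fbxa, fbxb and fbxc) were bound in 11 of 322 windows (3.42%), C-type lectin genes in 6 of 239 (2.51%), and neuropeptide receptor genes (npr, frpr and dmsr) in 1 of 81 (1.23%). UDP-glucuronosyltransferase genes (ugt) were bound in 5 of 67 (7.46%) and had a pooled summit in 65.7% of windows, where 38.9% of all coding windows had one.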
